A study of Mus musculus with 6 samples.

Results

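The genes described here are 10 genes of the Notch pathway: the ligands Jag1, Jag2, Dll1 and Dll4, the receptors Notch1, Notch2 and Notch3, the receptor-modifying enzyme Lfng, and the targets Hes1 and Hey1. They were chosen by name and make up 10 of the 21523 protein-coding genes used. The measurement is binding of the transcription factor SP8, taken by chromatin immunoprecipitation and sequencing (ChIP-seq) from forelimb ectoderm of mouse embryos at E10.5. The embryos were homozygous for a knock-in Sp8 allele that carries a FLAG tag (labelled Sp8FL KI, background C57BL6J), and an anti-FLAG antibody recovered the protein with its DNA. The ectoderm of 50 forelimb buds was pooled for each replicate, so binding in a few cells and weaker binding in many cells cannot be told apart. The study's 6 libraries comprised 2 SP8-FLAG immunoprecipitations and 2 inputs of this genotype, and 1 H3K4me2 immunoprecipitation with 1 input from wild-type (WT) embryos. The 1451 SP8 peaks that the authors listed for replicate 1 are the source of every value here. The other libraries were not analysed here, the sequencing depth is unknown, no peak has a replicate check, and a peak list holds no expression values against which the tissue label could be checked.

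Notch signalling passes between touching cells. A Jagged or Delta-like ligand on one cell binds a Notch receptor on its neighbour, the receptor is cut, and its intracellular part enters the nucleus, where it joins the DNA-binding protein RBPJ and turns on genes such as those of the Hes and Hey families. Fringe enzymes, of which Lfng is a member, add sugars to the receptor and so change which ligands it answers to. In the limb bud, Jag2 is the ligand of the apical ectodermal ridge, the thickened epithelium at the distal rim that drives outgrowth, and mice without Jag2 have fused digits.

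SP8 peaks lay close to 5 of the 10 genes. Jag2, Notch1, Lfng, Hes1 and Hey1 each had a peak centre inside the gene or within 2 kb of it. At this distance 4.97% of protein-coding genes had one. The 2 kb distance was chosen after the data were seen, and the main window set beforehand was 200 kb. Dll1 had its nearest peak 107.7 kb away. Within the 200 kb window, which defines a listed peak, 6 genes had a peak, against 30.9% of protein-coding genes. Jag1, Dll4, Notch2 and Notch3 had none. At other distances, 4 of the 10 genes had a peak within 1 kb (4.78% of protein-coding genes), 5 within 100 kb (20.1%) and 7 within 500 kb (51%), the last including Notch3. More than 1 peak within 200 kb was found at Jag2 and Lfng, and at 9.69% of protein-coding genes. Since the members were put forward with results of these data known, these counts are a description of the list and carry no test.

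**Figure D1:**
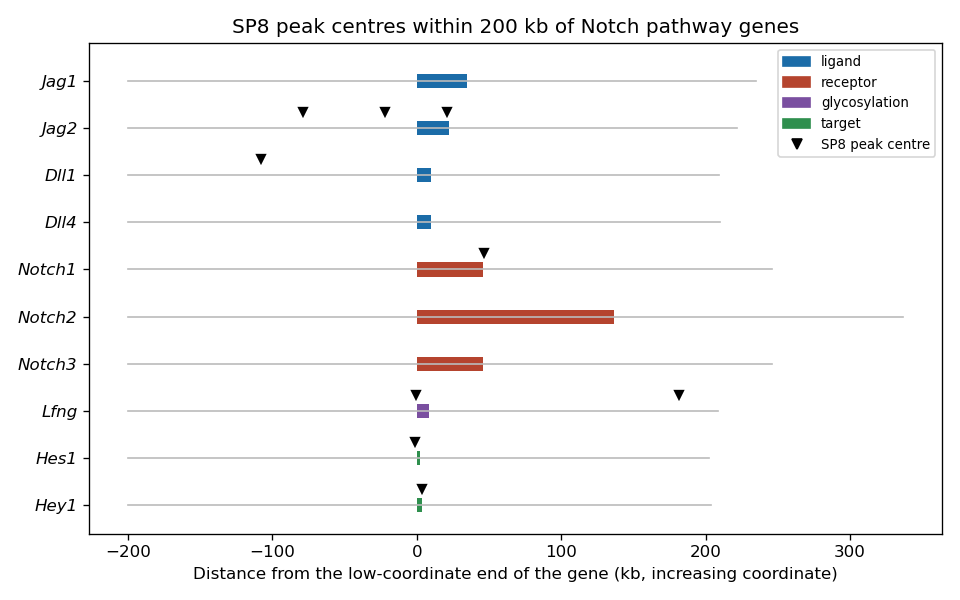
Positions of SP8 peak centres (triangles) within 200 kb of each Notch pathway gene; the x axis is the distance from the low-coordinate end of the gene in kb, coloured bars are the genes by role, and grey lines mark the searched interval. The 9 peaks lie at 6 genes, 3 of them at Jag2, and the lines of Jag1, Dll4, Notch2 and Notch3 carry no triangle.

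At 2 of the 8 genes with a promoter window the peak reached into that window. Hes1 and Hey1 had no window, so their promoters were not checked. The bases under the peak are shown because they are the promoter bases of a receptor and of its modifying enzyme that lay under an SP8 peak. Sequences are from RefSeq on GRCm38.p6, written 5′ to 3′ on the strand of the gene. The covered stretch runs from 250 to 154 bases before the transcription start for Notch1 (chr2:26503976-26504072, minus strand) and from 250 to 64 bases before it for Lfng (chr5:140607091-140607277, plus strand). Each is followed by the uncovered stretch that leads up to the start (chr2:26503823-26503975 and chr5:140607278-140607340). Capitals mark letters of the following motifs, each on either strand, so that CCGCCC and TTCCCA are also marked. The GC box GGGCGG and the CACCC box GGGTGG are bound by SP and KLF proteins. TAATTA is a core of homeobox protein sites, and TGGGAA is the core of RBPJ sites.
Notch1, covered by the peak: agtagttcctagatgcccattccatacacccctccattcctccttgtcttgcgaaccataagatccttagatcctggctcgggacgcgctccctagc
Notch1, uncovered: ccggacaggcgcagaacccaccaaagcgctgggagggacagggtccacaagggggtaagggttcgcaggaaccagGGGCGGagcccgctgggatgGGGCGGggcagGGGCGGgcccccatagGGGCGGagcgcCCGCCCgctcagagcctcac
Lfng, covered by the peak: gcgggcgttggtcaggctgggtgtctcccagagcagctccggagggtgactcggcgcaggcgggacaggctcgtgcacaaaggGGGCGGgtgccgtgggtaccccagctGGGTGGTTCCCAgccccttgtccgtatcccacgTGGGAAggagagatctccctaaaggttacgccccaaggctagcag
Lfng, uncovered: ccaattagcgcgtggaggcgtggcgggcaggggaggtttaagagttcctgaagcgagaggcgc

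The covered stretches differed in composition. Motifs were counted only as the full letters given, so CACCC outside GGGTGG or CCACCC was not counted. At Notch1 the 97 covered bases had 53.6% G or C and none of the 4 motifs, while the 153 bases between the peak and the start had 73.9% G or C and 5 GC boxes, 4 on the strand of the gene and 1 on the other. At Lfng the 187 covered bases had 66.8% G or C and held 1 GC box, 1 CACCC box and 2 RBPJ cores, 1 on each strand. The CACCC box and the first RBPJ core of Lfng stand side by side without a base between them. None of the 4 motifs was in the 63 uncovered bases of Lfng. Both peaks extend farther upstream than the 250 bases given, and that part was not read.

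Of the 4 ligands, Jag2 had the nearest peak. Jag2 (chr12:112907803-112929812, 22.0 kb) had 3 peaks, more than any other of the 10 genes. Among the further pathway genes described below, Dll3 and Pofut1 also had 3 within 200 kb. Of protein-coding genes, 3.05% had 3 or more peaks within 200 kb. The peak inside Jag2, at chr12:112928852-112929174, was 322 bp wide and had number 1354 in the list. Its centre was 482 bp downstream of the listed transcription start and 799 bp from the end of the gene in the gene table, which lies beyond that start. This peak did not reach the promoter window of Jag2, which runs from 250 bases before the start to 50 after it.

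The other peaks of the Jag2 locus were nearer to other genes. The peak at chr12:112885452-112885812, 360 bp wide and number 122, was 22.2 kb from Jag2 and 17.2 kb from Gpr132, which encodes a G protein-coupled receptor. It was the earliest in the list among the 9 peaks. The peak at chr12:112828989-112829530, 541 bp wide and number 892, was 78.5 kb from Jag2 and lay inside Cdca4 and the predicted gene Gm52009. On the other side of Jag2 the next peak was 5372 kb away and lay 0.25 kb from Sp4, a gene of the SP family.

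The remaining ligands had peaks at a distance or none within the window. Dll1 (chr17:15367354-15376932), a Delta-like ligand, had its peak at chr17:15259499-15259716, 217 bp wide and number 414. At 107.7 kb, Dll1 was still the nearest protein-coding gene to that peak, followed by Fam120b at 136.6 kb. A lncRNA gene, Gm5091, was nearer to it than Dll1. The nearest peak to Jag1 (chr2:137081451-137116520), the other Jagged ligand, was 595.4 kb away at chr2:136485918-136486161 and 46.3 kb from Ankef1. For Dll4 (chr2:119325784-119335666), a ligand best known from blood vessels, it was 580.1 kb away at chr2:118745537-118745814, and 0.083 kb from Inafm2. Jag1 lay in an interval of 2.63 Mb between neighbouring peaks and Dll4 in one of 1.25 Mb. The median gap between neighbouring peak centres of the list was 748.5 kb. Neither gene had a peak within 500 kb, so both intervals exceed that median by construction, and no comparison can be drawn from it.

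Among the receptors, Notch1 (chr2:26457902-26503822) had a peak and the others did not within 200 kb. The Notch1 peak at chr2:26503975-26504174 was centred 252.5 bp upstream of the transcription start, had number 1093, and was 199 bp wide, the smallest width in the list, which it shared with 62 other peaks. It lay inside Gm35978, a lncRNA gene of 1421 bp next to Notch1. On the other side of Notch1 the next peak was 905.8 kb away. Notch2 (chr3:98013538-98150367) is the longest of the 10 genes at 136.8 kb and held no peak. Its nearest, at chr3:97227189-97228101 and 912 bp wide, was 785.9 kb away inside Bcl9, which encodes a cofactor of beta-catenin. Notch3 (chr17:32120820-32166896) lay just outside the window, with its nearest peak 222.5 kb away at chr17:32389130-32389631, inside Wiz. The farthest peak still inside the window was that of Lfng at 173.3 kb.

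Lfng (chr5:140607341-140615545) had the widest peak of the 10 genes. At chr5:140606597-140607277 it measured 680 bp, wider than 91.2% of the list, where the median width was 336 bp. It was centred 404 bp upstream of the start, ended 64 bp short of it, and had number 1235. The other Lfng peak, at chr5:140788683-140788961, was 278 bp wide with number 826 and lay inside Gna12, a G protein alpha subunit gene. Another peak inside Gna12, at chr5:140829713-140830164, was 214.4 kb from Lfng and so outside the window.

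Both target genes had a single peak, at the gene. Hes1 (chr16:30065357-30067796), a repressor of the basic helix-loop-helix type, had a peak at chr16:30063975-30064200 that was 225 bp wide, number 1096, and centred 1.27 kb from its low-coordinate end. Hes1 had 1 other protein-coding gene within 200 kb, Cpn2 at 192.3 kb from the peak, and the next peak on the other side of Hes1 was 2179 kb away. At Hey1 (chr3:8663359-8667038), a related repressor, the peak at chr3:8667016-8667377 was 361 bp wide, number 1121, and centred 0.159 kb from the high-coordinate end, with 22 bp of it inside the gene. The centre of the Hey1 peak also lay inside LOC115489673 (chr3:8666924-8669688), a predicted protein-coding gene that overlaps the end of Hey1. For Hes1 and Hey1 the side of the transcription start was not taken from the table.

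**Figure D2:**
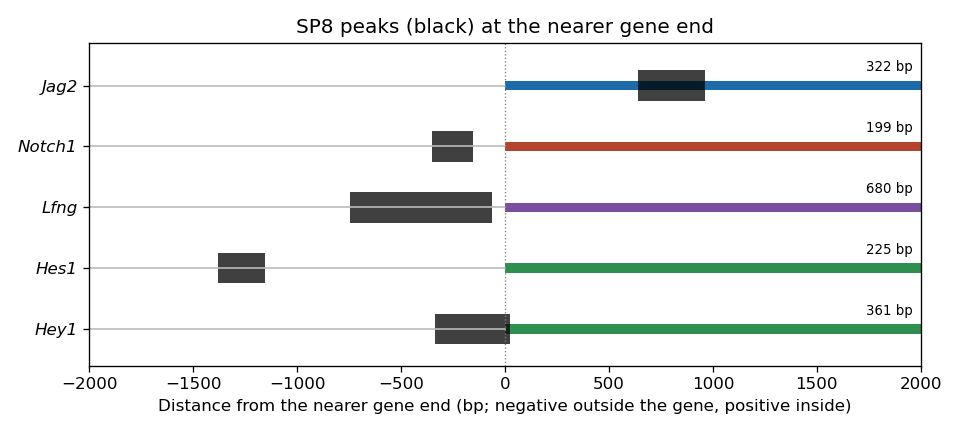
Extent of the 5 near peaks (black boxes) relative to the nearer end of each gene in the gene table; the x axis is in bp, negative outside the gene and positive inside it, coloured bars are the genes, and the widths in bp are printed at the right. The Jag2 peak is inside the gene, those of Notch1, Lfng and Hes1 are outside, and that of Hey1 crosses the gene end by 22 bp.

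The 5 genes with a near peak differed among themselves in local gene density. They had between 1 (Hes1) and 14 (Jag2) other protein-coding genes within 200 kb, and the 4 genes without a peak in the window had between 2 (Jag1) and 13 (Dll4), with a median of 8 for all protein-coding genes. The median length was 8.21 kb for the 5 genes with a near peak and 40.6 kb for the 4 without a peak in the window. The median of all protein-coding genes was 17.4 kb. Dll1, at 9.58 kb, was in neither group. The lengths overlapped, since Jag2, with a near peak, had 22.0 kb and Dll4, without a peak in the window, had 9.88 kb. Notch1, at 45.9 kb, and Notch3, at 46.1 kb, were of like length and differed in having a near peak.

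The near peaks came late in the list. Their numbers ran from 1093 at Notch1 to 1354 at Jag2, and the 4 peaks between 10 and 200 kb from the genes had numbers from 122 to 892. Of the 622 peaks within 2 kb of an end of a protein-coding gene, 26.2% had a number of 1093 or higher, and of the whole list 24.7% did. The limit of 1093 was taken from the near peaks, so every near peak passes it by construction and these shares are no test. The meaning of the number is not stated, so an order of strength cannot be read from it. In width the near peaks, with a median of 322 bp, and the farther ones, with a median of 319 bp, were both close to the median of the list.

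**Figure D3:**
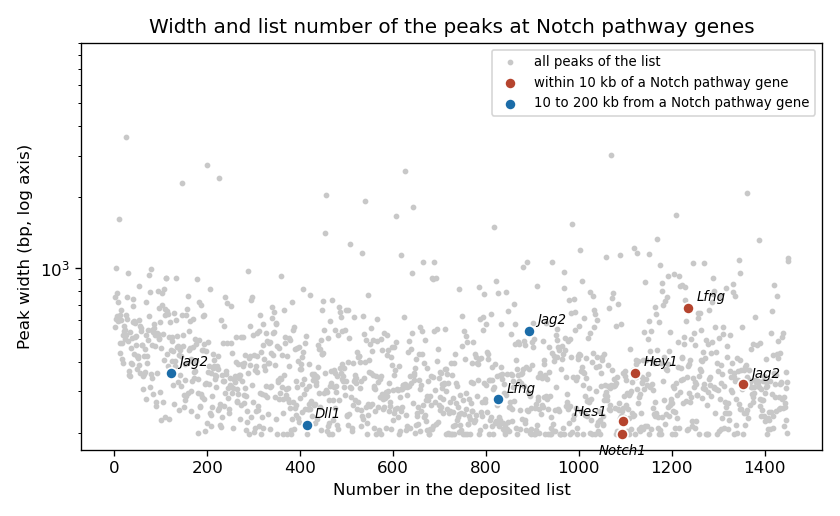
Number in the deposited list (x axis) and width in bp (y axis, log scale) of the 1451 peaks, with the 9 peaks at Notch pathway genes in colour and named by gene. The 5 peaks within 10 kb have numbers from 1093 to 1354 and widths from 199 to 680 bp; the 4 others have numbers from 122 to 892.

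Promoter sequence was compared for the 8 genes with an entry in the promoter table, which gave 9 windows of 300 bases, 2 of them for Dll1. Hes1 and Hey1 had none. A peak covered part of the window at Notch1 (97 bases) and at Lfng (187 bases), where 2.3% of the 17274 protein-coding genes with a window had one covered. A GC box stood in 6 of the 9 windows, against 46.7% of the 21045 windows of protein-coding genes. Among the 436 windows covered by a peak anywhere in the genome, 396 (90.8%) had a GC box. A window counted as covered when any base of it lay under a peak. The box could stand outside the covered part, as at Notch1. Notch2 had the most GC boxes with 7, followed by Jag2 and Notch1 with 5 each, Notch3 with 4, Dll4 with 2 and Lfng with 1. Jag1 and both windows of Dll1 had none. Notch2 and Notch3, with no peak in the window of 200 kb, had more GC boxes in these 300 bases than Lfng. The Lfng peak extends beyond its 300 bases, and GC boxes in that part were not counted. Of all windows, 3.79% had at least 5 GC boxes.

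The other motifs were less frequent in these promoters. A CACCC box was present at Jag2, Lfng and the internal window of Dll1, 3 of 9 windows, against 33.8% of all windows. RBPJ cores were found at Lfng, in 1 of 9 windows against 24.2% of all windows, and 3.64% of all windows had 2 or more as Lfng did. TAATTA was in 0 of 9 windows, against 4.47% of all windows, which says only that these letters are not in these bases. The Jag2 window had the highest G and C content, at 86.0%, above 99.9% of all windows, and contained 63 CG dinucleotides against a median of 13. The windows of Notch1 and Lfng had 68.3% and 66.7%, near the median of 68.3% for windows covered by a peak, and the median of all windows was 56.7%. Without a peak in the window of 200 kb, Notch2 (73.0%) and Notch3 (70.0%) were above that level, and Dll4 (63.7%) and Jag1 (55.7%) below it.

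The wider pathway was described with 44 further genes, all found in the gene table. Within 10 kb, a window counted after seeing the data, 5 of the 10 genes above and 6.48% of protein-coding genes had a peak. Of the 44, 1 had a peak within 10 kb. It was Maml3, which encodes a Mastermind-like coactivator of the Notch nuclear complex, with a peak of 496 bp at chr3:52101941-52102437, inside the gene and 2817 bp downstream of its start. Within 200 kb, 16 of the 44 genes (36.4%) had a peak, close to the background of 30.9%. By role these were 3 of 8 genes of receptor cleavage, 3 of 4 of glycosylation, 2 of 4 of ligand endocytosis, 2 of 8 of the nuclear complex, 2 of 9 inhibitors and turnover genes, 3 of 7 targets and 1 of 3 ligands. Notch4, the remaining receptor, had none, with its nearest peak 261.7 kb away. The median distance to the nearest peak was 54.5 kb for the 10 genes, 280.4 kb for the 44 and 480.8 kb for all protein-coding genes. Of the 10 genes, 5 had a peak within 2 kb and no other had one within 100 kb. Their median thus lies between these groups and describes no single gene.

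Within 50 kb of a peak there were 5 of the 44 genes, against 13.3% of protein-coding genes, and they are named here after their values were seen. Besides Maml3 they were Dll3, a Delta-like gene (10.01 kb), Pofut1, which adds O-fucose to the receptor (20.2 kb), Adam10, the protease of the first ligand-induced cut (26.0 kb), and Psenen, a subunit of gamma-secretase (26.7 kb). At each of these 4 the peak was nearer to another gene, namely Selenov, Kif3b, Lipc and Arhgap33. Of the 9 peaks at the 10 genes, 5 had the gene itself as the nearest protein-coding gene, those of Notch1, Lfng, Hes1, Jag2 (inside) and Dll1, and 4 had another. Rbpj, which encodes the DNA-binding partner of all Notch receptors, is in the count of genes without a peak within 200 kb.

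**Figure D4:**
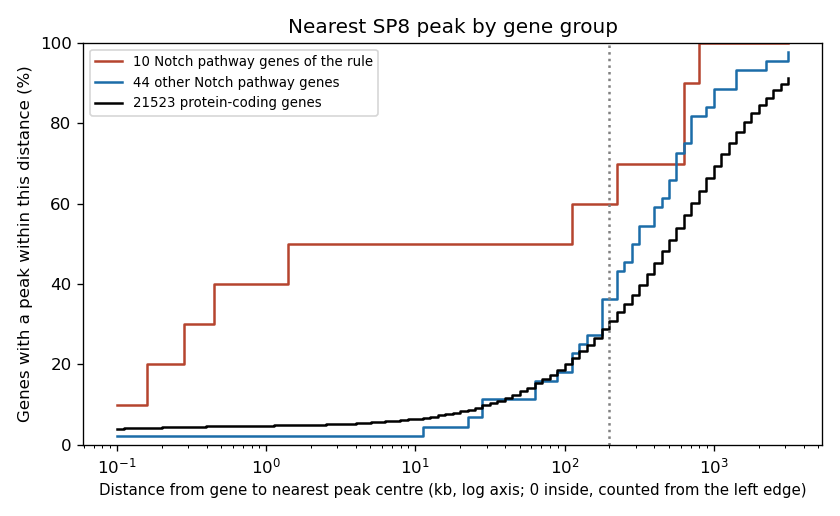
Share of genes (y axis, percent) with an SP8 peak centre inside the gene or within the distance on the x axis (kb, log scale) for the 10 Notch pathway genes, the 44 other pathway genes and 21523 protein-coding genes; the dotted line is at 200 kb. The 10 genes reach 50% at 2 kb and stay there to 100 kb. At 10 kb the 44 other genes are at 2.27%, below the 6.48% of all protein-coding genes. The 44 genes are at 11.4% against 13.3% at 50 kb, and at 18.2% against 20.1% at 100 kb.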

How the data were processed

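Per the labels, SP8-FLAG chromatin was immunoprecipitated from trypsin-loosened ectoderm. The authors deposited the peak list as 4 columns: sequence name, start, end and a number from 1 to 1451 in file order. Per the submitters' processing notes, the tools were FastQC, SAMtools, TopHat2, deepTools and MACS2 and the builds GRCm38 and mm10. Control library and pooling are not given in the sources used here. The list is named for q 0.1 and fold change 3, which its columns cannot show. Positions are printed as deposited. Whether starts count from 0 or 1 is not stated. Covered sequence is given for starts that count from 0. If they count from 1, the covered stretch of Notch1 is 98 bases, with the first uncovered base added to it, and that of Lfng is the same.

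Genes came from RefSeq (GRCm38.p6), leaving out chromosome Y, the mitochondrial genome and starts below 3 Mb. Strand, starts and promoters came from the RefSeq promoter table, with 8 of 10 members matched. A peak was placed by its centre, and distance is 0 inside a gene. The 4 peaks outside chromosomes 1 to 19 and X were not assigned. Scripts (Python 3.11.15, pandas 2.3.3) were tested on simulated peaks. All members are named. Of the other pathway genes the rule named those with a peak within 10 kb, and the nearest gene of each listed peak is named. Members and lists were chosen with earlier results of these data known.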

Additional observations from a re-analysis of the deposited data

How the results depend on the processing

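For the 8 results, 34 alternatives were run, 4 of them (windows of 10 and 2 kb) chosen after seeing the data, and 18 stayed within 1.5 times the reported value, 14 of the 27 for counts and 4 of the 7 for the median distance, width and number. The 6 genes with a peak became 2 with the first 725 peaks (Jag2 and Dll1), where 17.6% of protein-coding genes had one. With peaks wider than the list median they became 3 (Jag2, Lfng and Hey1), against 18.1%. Under both settings Jag2 counted only through peaks nearer to other genes, since its inside peak had number 1354 and was 322 bp wide. None of the 5 near peaks was among the first 725. The 9 peaks became 2 and 4 under these settings, and the median distance of 54.5 kb became 570.2 and 534.1 kb. It was 54.4 kb from peak edges and 169.4 kb from the start of 8 genes. Those 8 leave out Hes1 and Hey1, whose nearest peaks were 1.27 and 0.159 kb from the gene. Of the 44 other genes, 16 with a peak became 8, 5 and 29 within 100, 50 and 500 kb, 1 within 10 kb and 1 within 2 kb. They became 9 with the first 725 peaks and 7 with wider peaks. Measured from the start, 10 of 33 other genes (30.3%) and 4 of 8 members (50%) had a peak within 200 kb. The share of protein-coding genes under that rule was 29.0%. With genes of any kind, 3 peaks in place of 5 had the member nearest. Median width was 360 bp and median number 1096 within 100 kb, against 322 bp and 1093, and mean width was 354 bp. Shorter lists of peaks and narrower windows hold fewer peaks by construction. The cause of the other changes was not tested. No paired analysis was possible because 1 peak list was analysed, and for that reason no replicate was left out. Unknown depth means that a gene without a peak cannot be told apart from one bound below the calling threshold.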
